A study of Homo sapiens with 6 samples.

Results

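The 10 genes described here are imprinted genes, in which the copy inherited from one parent is normally silenced. They are H19, IGF2, CDKN1C, PHLDA2, KCNQ1OT1, MEG3, PEG3, PEG10, MEST and SNRPN, taken by name from the 26475 genes in the authors' table over all libraries. H19 was chosen by its measured TPM, which differed strongly between the cell lines, so its values are given as a description with no test. The others were taken as further imprinted genes, among them those of the IGF2/H19 and KCNQ1 domains of chromosome 11.

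RNA of human lung cancer cells was sequenced in 6 libraries: PC9, PC9-BrM4 and PC9-AMG with 2 libraries per line, all from cells cultured in MGS and with no other treatment named. PC9, a long-established cell line from a lung adenocarcinoma, carries an activating mutation of EGFR, and by their names PC9-BrM4 and PC9-AMG derive from it. What BrM4, AMG and MGS stand for is not spelled out in the labels; BrM is a usual name for brain-metastatic derivatives. The library names in the deposited tables also hold the word mix, which no label explains, so whether RNA of other cells is part of these TPM values is not known. Whether libraries of a line came from separate cultures is not stated either, and p-values here therefore reflect library-to-library spread that may be technical. With 1 line of each kind, a difference that belongs to a derivation and one that belongs to that line alone cannot be told apart, and neither can a change in every cell and a change in the share of cells that express a gene.

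Imprinted genes lie in clusters, each under an imprinting control region that carries DNA methylation on the allele of one parent. On chromosome 11, CTCF binds the unmethylated maternal control region and lets H19, a non-coding RNA, be transcribed from that allele, while IGF2, a fetal growth factor, is transcribed from the paternal allele. In the neighbouring domain, the paternally transcribed RNA KCNQ1OT1 keeps CDKN1C and PHLDA2 silent in cis. H19 is abundant in fetal tissues, falls after birth in most of them, and is re-expressed in some tumours. The files hold RNA levels without parental origin, so no statement on the allele used is made.

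H19 is the host of a microRNA, miR-675, whose mature strands are shown because they are the processed product of the member that differed most between lines. On build GRCh38.p14 the hairpin lies at 11p15 inside H19; within GENCODE it falls in exon 1 of 4 of the 12 annotated H19 transcripts. The sequences are from RefSeq, written 5′ to 3′, with the seed (bases 2 to 8) in capitals. The 5p strand lies at chr11:1996800-1996822 and the 3p strand at chr11:1996768-1996787, both on the minus strand, and their seeds differ.

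hsa-miR-675-5p: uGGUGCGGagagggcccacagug
hsa-miR-675-3p: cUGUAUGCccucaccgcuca

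Promoter windows of H19 and SNRPN are shown because these are the members with the largest differences between libraries. Imprinting is carried by methylation of CG dinucleotides and by the factor ZFP57, which binds methylated TGCCGC, a further reason to show them. Of the 10 genes, 4 (H19, MEG3, MEST, SNRPN) had entries in the RefSeq promoter table (GRCh38.p14). The H19 stretch is the 250 bases before the 1 H19 start with a window there, chr11:2001267-2001516 on the minus strand, with CG in capitals. Its first 50 bases lie upstream of the deposited gene model and the other 200 inside it. With 12 annotated H19 transcripts, this stretch need not be the promoter in use, and its CG count describes this window alone. The SNRPN stretch is chr15:24954737-24954922 on the plus strand, 186 bases that end just before the start of SNURF in the files, with TGCCGC on either strand in capitals.

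H19: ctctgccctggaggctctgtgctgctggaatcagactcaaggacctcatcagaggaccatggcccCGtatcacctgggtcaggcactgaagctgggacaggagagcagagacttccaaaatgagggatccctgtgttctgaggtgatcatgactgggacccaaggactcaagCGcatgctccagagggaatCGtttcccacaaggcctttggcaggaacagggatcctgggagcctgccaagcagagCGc
SNRPN: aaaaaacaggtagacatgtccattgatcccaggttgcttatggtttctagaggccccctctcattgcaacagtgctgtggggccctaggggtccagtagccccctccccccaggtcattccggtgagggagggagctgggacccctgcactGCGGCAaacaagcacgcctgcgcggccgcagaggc

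The H19 stretch holds 4 CG, against a median of 11 in all 35116 windows of the table, and no TGCCGC on either strand. TGCCGC was found in 12.7% of all windows of this length, and among the members in 2 of the 4 SNRPN windows, 1 of the 5 MEST windows and 3 of the 3 MEG3 windows. These matches describe letters and not sites that are bound, and methylation was not analysed here.

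Levels are TPM, the share of a library's transcripts after dividing reads by transcript length, scaled to the same total in every library, so that values of different genes can be compared. Differences between lines are differences of log2(TPM + 1), a scale that understates changes of genes near 0. Of the 10 genes, 6 (H19, CDKN1C, PHLDA2, KCNQ1OT1, MEST, SNRPN) reached 1 TPM in at least 2 libraries, the filter for testing. PEG10 and IGF2 stayed below it, and MEG3 and PEG3 were listed at 0 in all 6 libraries.

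H19 was almost silent in PC9, at 0.164 TPM in library 1 and 0 in library 2. In PC9-BrM4 it stood at 41.4 and 42.7 TPM. In PC9-AMG it stood at 1.06 and 0.504 TPM. The 2 PC9-BrM4 libraries were therefore far above the other 4, and the PC9-AMG libraries lay slightly above PC9. The mean was 42.1 ± 0.907 TPM in PC9-BrM4, 0.781 ± 0.392 in PC9-AMG and 0.0822 ± 0.116 in PC9 (SD, n = 2 each). On the log2(TPM + 1) scale PC9-BrM4 was 5.32 above PC9, PC9-AMG was 0.70 above PC9, and the difference of PC9-AMG from PC9-BrM4 was -4.61.

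H19 was a well expressed gene in PC9-BrM4, where 4396 and 4049 of the 26485 genes in the library tables had a higher TPM. In PC9 it was passed by 16023 and 16708 genes, the second of these being every gene above 0, and in PC9-AMG by 13937 and 14820 genes. With a pseudocount of 0.1 in place of 1, the difference of PC9-BrM4 from PC9 was 8.02 and that of PC9-AMG from PC9 was 2.36. The size of a difference from a group near 0 is therefore set largely by the pseudocount.

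The library tables list H19 at 2 places, chromosome 11 (hg38, chr11:1995176-2001466, minus strand) and an unlocalised scaffold of the same chromosome, and the values above are sums over both. The chromosomal copy held 22.8 and 23.9 TPM in PC9-BrM4, 55.0% and 56.0% of the sum, and the scaffold copy 18.6 and 18.8 TPM. In PC9 library 1 the copies held 0.0822 TPM each. The table over all libraries keeps the scaffold value only, and there the difference of PC9-BrM4 from PC9 was 4.24. Mean read coverage over the chromosomal copy was 13.1 reads per base in both PC9-BrM4 libraries and 0.0261 in PC9 library 1.

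**Figure D1:**
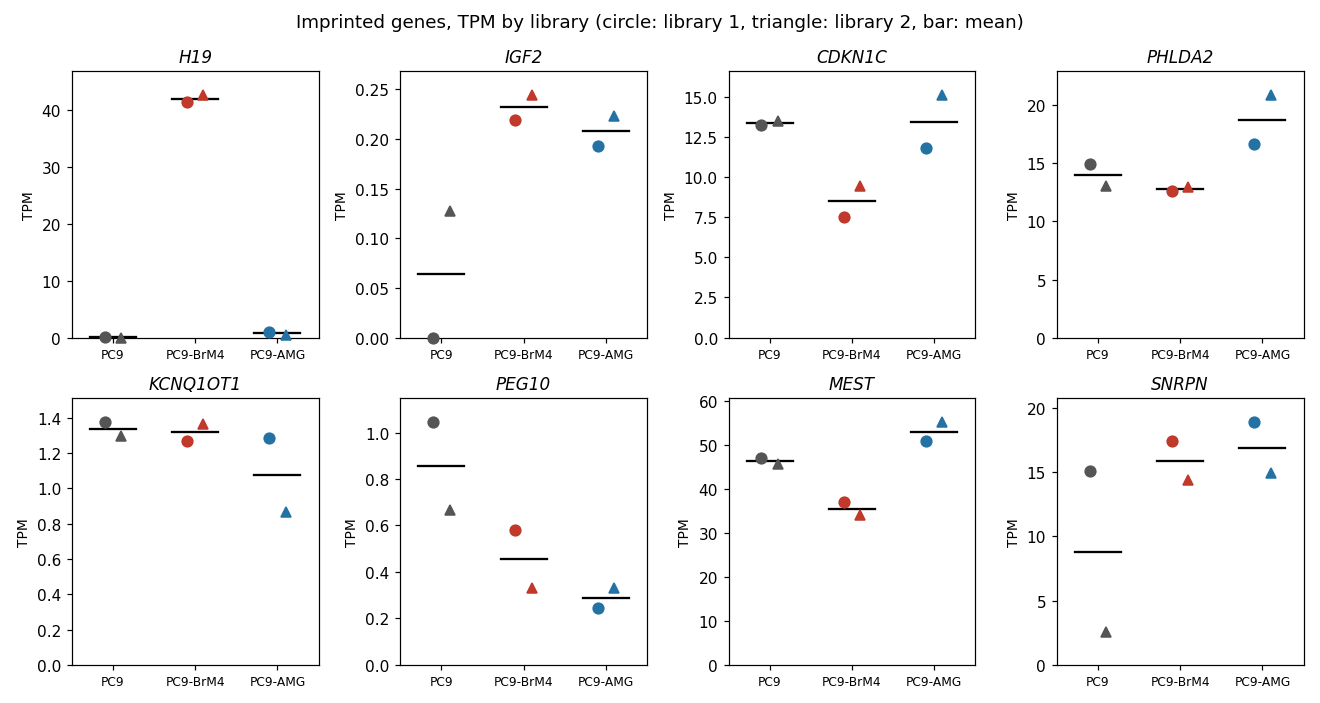
TPM (vertical axes, linear and from 0, with a separate scale for each gene) of the 8 imprinted genes listed above 0, in PC9, PC9-BrM4 and PC9-AMG. Circles are library 1, triangles library 2 and bars the mean of 2 libraries. H19 stands at 41.4 and 42.7 TPM in PC9-BrM4 and at 1.06 or less in the other libraries, and the SNRPN value of PC9 library 2 lies far below the other SNRPN values.

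The microRNA gene MIR675 itself was listed at 0 in both PC9 libraries, at 0.0625 and 0.0907 TPM in PC9-BrM4 and at 0.0138 and 0 TPM in PC9-AMG. An mRNA library does not measure mature microRNAs, so these values say nothing of the level of the strands printed above. HOTS, annotated on the opposite strand and listed as starting just outside H19, was at 0.521 and 0.474 TPM in PC9, 1.04 and 1.34 in PC9-BrM4, and 0.517 and 0.419 in PC9-AMG. It reached 1 TPM in the PC9-BrM4 libraries alone, so its values are a description, although it counts among the tested genes around H19. Its reads may not be separable from those of H19.

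IGF2, the growth factor that shares its enhancers with H19, stayed close to 0 in every library. It was listed at 0 and 0.128 TPM in PC9, 0.219 and 0.244 in PC9-BrM4, and 0.193 and 0.223 in PC9-AMG. The derivatives' libraries lay above both PC9 libraries, all at under 0.25 TPM and too low for the filter. With no filter its difference between PC9-BrM4 and PC9 was 0.21 (limma, adjusted p = 0.239). The read-through gene INS-IGF2 and the antisense gene IGF2-AS were listed at 0 in all 6 libraries.

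The remaining tested members were compared between lines with limma on all 14627 tested genes, with calls made where the Benjamini-Hochberg adjusted p was below 0.05. Between PC9-BrM4 and PC9, 16.3% of all tested genes were called, 9.89% higher and 6.45% lower in PC9-BrM4. Of the 5 tested members other than H19, CDKN1C and MEST were called, both lower, and none higher. Between PC9-AMG and PC9, 7.49% of tested genes (3.67% higher, 3.82% lower in PC9-AMG) and 0 of the 5 members were called by limma, with 2 of them (PHLDA2, SNRPN) at an unadjusted p under 0.05. Between PC9-AMG and PC9-BrM4, 18.6% of tested genes were called, 6.31% higher and 12.3% lower in PC9-AMG. There 3 of the 5 (CDKN1C, PHLDA2, MEST) were called, all higher in PC9-AMG. The median difference of all tested genes was -0.13 in this comparison, and after median centring the differences of CDKN1C, PHLDA2 and MEST were 0.78, 0.68 and 0.74. Median centring turned the split of all calls from 1446 higher and 943 lower to 917 and 1293 in the first comparison, from 537 and 559 to 685 and 436 in the second, and from 923 and 1797 to 1606 and 900 in the third, while the members called stayed at 2, 0 and 3 in the same directions. The 3 comparisons share libraries, so these counts are not independent of each other, and 5 genes are too few to set a share beside the background.

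CDKN1C encodes p57, an inhibitor of cyclin-dependent kinases that restrains growth, and lies at chr11:2883218-2885765 (hg38, minus strand). It stood at 13.3 and 13.5 TPM in PC9, at 7.55 and 9.45 TPM in PC9-BrM4, and at 11.8 and 15.1 TPM in PC9-AMG. The PC9-BrM4 libraries were below the other 4 with no overlap. It was lower in PC9-BrM4 than in PC9 by a log2 difference of -0.61 ± 0.17 (SE, limma, adjusted p = 0.0375). It was higher in PC9-AMG than in PC9-BrM4 by 0.60 ± 0.17 (limma, adjusted p = 0.0359). The difference of PC9-AMG from PC9 was -0.0042 (limma, adjusted p = 0.991), with a 95% interval of -0.38 to 0.38. The call against PC9 was lost without either PC9 library (adjusted p = 0.178 and 0.197) and without PC9-BrM4 library 1 (0.16), with the same direction. The call against PC9-BrM4 was lost without PC9 library 1 (0.0664), PC9 library 2 (0.0667), PC9-BrM4 library 1 (0.176) or PC9-AMG library 2 (0.183).

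PHLDA2, a small protein that limits placental growth, lies at chr11:2928273-2929420 (hg38, minus strand) beside CDKN1C. It stood at 14.99 and 13.05 TPM in PC9, at 12.62 and 12.96 TPM in PC9-BrM4, and at 16.6 and 20.9 TPM in PC9-AMG. The PC9-AMG libraries were the highest, and both PC9 libraries lay above both PC9-BrM4 libraries, the nearest of them by under 0.1 TPM. It was higher in PC9-AMG than in PC9-BrM4 by 0.51 ± 0.15 (SE, limma, adjusted p = 0.0455). Against PC9 the differences did not pass the test, at 0.39 for PC9-AMG (limma, adjusted p = 0.149) and -0.12 for PC9-BrM4 (adjusted p = 0.644). The call between the derivatives was lost when PC9 library 1 (0.0858), PC9 library 2 (0.0843), PC9-BrM4 library 1 (0.16), PC9-BrM4 library 2 (0.0856) or PC9-AMG library 2 (0.206) was left out.

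KCNQ1OT1, the long non-coding RNA of the same domain (hg38, chr11:2608328-2699998, minus strand), was low and level across the lines. It stood at 1.37 and 1.3 TPM in PC9, 1.27 and 1.37 in PC9-BrM4, and 1.29 and 0.866 in PC9-AMG. PC9-AMG library 2 was the lowest, and the other 5 overlapped. The differences were -0.01 for PC9-BrM4 and -0.18 for PC9-AMG against PC9 (limma, adjusted p = 0.984 and 0.685), with 95% intervals of -0.54 to 0.52 and -0.71 to 0.35. KCNQ1, the potassium channel gene that it lies antisense to, was listed at 0 to 0.373 TPM. The libraries keep strand, but whether the counting used it is not given in the sources used here, so reads of overlapping genes on opposite strands cannot be told apart.

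MEST, a hydrolase-like protein transcribed from the paternal allele, was the highest of the members in PC9 and PC9-AMG (hg38, chr7:130486175-130506297, plus strand). It stood at 47.0 and 45.5 TPM in PC9, at 36.9 and 34.0 TPM in PC9-BrM4, and at 50.9 and 55.0 TPM in PC9-AMG. The lines were ordered PC9-BrM4, PC9 and PC9-AMG, with no overlap between libraries of neighbouring lines. It was higher in PC9-AMG than in PC9-BrM4 by 0.57 ± 0.11 (SE, limma, adjusted p = 0.00732), and this call held under all 20 alternatives, with adjusted p between 0.00265 and 0.0427. It was lower in PC9-BrM4 than in PC9 by -0.37 ± 0.11 (limma, adjusted p = 0.0457). That call was lost without PC9 library 1 (0.308), PC9 library 2 (0.24), PC9-BrM4 library 1 (0.0708) or PC9-BrM4 library 2 (0.116). The step from PC9 to PC9-AMG did not pass the test (0.19, adjusted p = 0.311).

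MEST lies on a stretch of chromosome 7 whose genes were often lower in PC9-BrM4. Of the 47 tested genes starting within 5000 kb of it, 3 were higher and 16 lower in PC9-BrM4 than in PC9. Among all tested genes 9.89% were higher and 6.45% lower. The median difference of the 47 was -0.33 relative to the median of all tested genes, against -0.46 for MEST itself. Between PC9-AMG and PC9-BrM4, 12 of the 47 were higher in PC9-AMG and 1 lower, against 6.31% higher and 12.3% lower among all tested genes. The part of the stretch in the MEST difference was not tested.

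PEG10, a gene derived from a retrotransposon that is needed for placenta formation, lies on the same chromosome (hg38, chr7:94656325-94669694, plus strand). It stood at 1.04 and 0.665 TPM in PC9, 0.582 and 0.329 in PC9-BrM4, and 0.243 and 0.329 in PC9-AMG. Both PC9 libraries were above the other 4, at levels under the filter. With no filter the differences did not pass the test, at -0.35 for PC9-BrM4 and -0.52 for PC9-AMG against PC9 (limma, adjusted p = 0.231 and 0.145). The neighbouring imprinted gene SGCE, a sarcoglycan transcribed from the opposite strand, stood at 33.0 to 36.9 TPM in PC9 and PC9-BrM4 and at 25.2 and 28.4 TPM in PC9-AMG, a difference from PC9 that did not pass the test (-0.37, adjusted p = 0.0935).

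SNRPN encodes the splicing protein SmN and lies in the Prader-Willi domain (hg38, chr15:24823647-24978582, plus strand). It stood at 15.1 and 2.56 TPM in PC9, at 17.4 and 14.4 TPM in PC9-BrM4, and at 18.9 and 14.9 TPM in PC9-AMG. A single library, PC9 library 2, was far below the other 5. The differences from PC9 were 1.15 for PC9-BrM4 and 1.23 for PC9-AMG and did not pass the test (limma, adjusted p = 0.164 and 0.171). They were called without PC9 library 1, at 2.24 and 2.32 (adjusted p = 7.63e-05 and 0.000859), and fell to 0.07 and 0.15 without PC9 library 2.

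SNURF is encoded on the same transcript as SNRPN, upstream of it, and the 2 genes share their exons with some SNRPN transcripts. Its level moved opposite to SNRPN in PC9, at 49.8 and 63.9 TPM, against 38.6 and 46.5 TPM in PC9-BrM4 and 44.9 and 42.1 TPM in PC9-AMG. The sum of SNRPN and SNURF was 64.9 and 66.5 TPM in PC9, 56.0 and 60.9 in PC9-BrM4, and 63.8 and 57.1 in PC9-AMG. In the sum, PC9 library 2 no longer stood apart. The differences of the sum from PC9 were -0.17 for PC9-BrM4 and -0.12 for PC9-AMG (limma, adjusted p = 0.333 and 0.526). Values for SNRPN alone are uncertain for this reason.

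**Figure D2:**
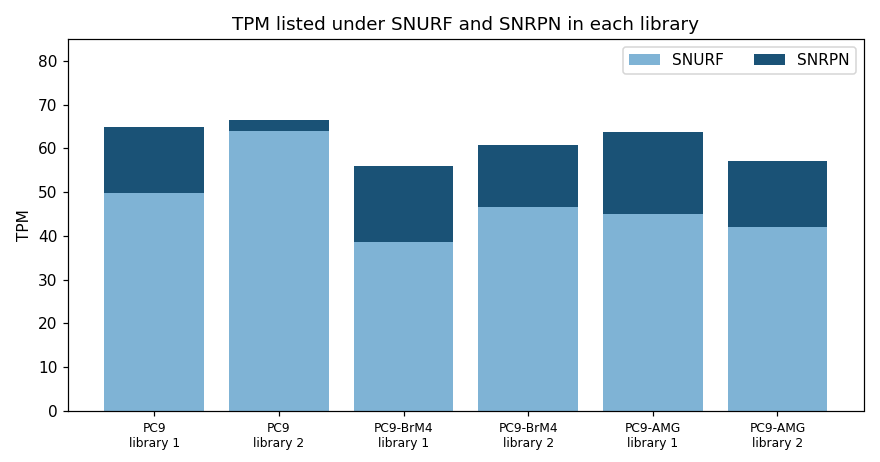
TPM listed under SNURF (light) and SNRPN (dark) in each of the 6 libraries, stacked from 0. In PC9 library 2 SNRPN holds 2.56 TPM and SNURF 63.9 TPM, while the sums lie between 56.0 and 66.5 TPM in all libraries.

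MEG3, a maternally transcribed non-coding RNA on chromosome 14, and PEG3, a paternally transcribed zinc finger protein on chromosome 19, were listed at 0 in all 6 libraries. Other genes of their domains were listed at 0 in the same way: DLK1, RTL1, MEG8 and MEG9 with MEG3, and ZIM2, MIMT1, USP29 and ZIM3 with PEG3. The exception was DIO3, an enzyme that inactivates thyroid hormone and lies at the far end of the MEG3 domain. DIO3 was at 0.0845 and 0 TPM in PC9, 0.922 and 1.43 TPM in PC9-BrM4, and 0 in both PC9-AMG libraries. Both PC9-BrM4 libraries were above the other 4, but only 1 library reached 1 TPM, so DIO3 was not tested; it is named because its values were seen.

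Of 66 further imprinted genes, 64 were in the tables, 29 passed the filter and 20 were listed at 0 in all 6 libraries. Between PC9-BrM4 and PC9, INPP5F was higher and CPA4 and PLAGL1 were lower, 3 of 29 (10.3%) against 16.3% of all tested genes. Between PC9-AMG and PC9, PLAGL1 was lower, 1 of 29 (3.45%) against 7.49%. Between PC9-AMG and PC9-BrM4, CPA4 and TFPI2 were higher and INPP5F lower (-0.54, adjusted p = 0.0417, lost without any library but PC9-BrM4 library 2), 3 of 29 (10.3%) against 18.6%. The median differences of the 29 were -0.04, -0.14 and -0.04 in that order, against 0.09, -0.05 and -0.13 for all tested genes. The list as a whole was thus called no more often than tested genes in general.

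CPA4, a carboxypeptidase gene in the MEST cluster on chromosome 7, had the largest difference of the wider list. It stood at 8.93 and 8.74 TPM in PC9, 1.68 and 1.78 TPM in PC9-BrM4, and 6.45 and 6.0 TPM in PC9-AMG. The lines did not overlap. The difference from PC9 was -1.85 ± 0.17 in PC9-BrM4 (SE, limma, adjusted p = 0.000119) and -0.45 in PC9-AMG, which was not called (adjusted p = 0.142). CPA4 was 1.40 higher in PC9-AMG than in PC9-BrM4 (adjusted p = 0.000662), and both calls held under every alternative tried.

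PLAGL1, a zinc finger protein that restrains growth and is transcribed from the paternal allele, was lower in both derivatives. It stood at 10.8 and 9.37 TPM in PC9, 5.16 and 5.17 TPM in PC9-BrM4, and 5.54 and 5.93 TPM in PC9-AMG. All libraries of both derivatives lay below both PC9 libraries. The differences were -0.84 for PC9-BrM4 and -0.72 for PC9-AMG (limma, adjusted p = 0.00782 and 0.0324). The call in PC9-BrM4 was lost without PC9 library 1 (adjusted p = 0.105), and that in PC9-AMG when any PC9 or PC9-AMG library was left out (up to 0.29).

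INPP5F, a phosphoinositide phosphatase, stood at 8.32 and 7.10 TPM in PC9, 14.1 and 12.1 TPM in PC9-BrM4, and 8.67 and 8.71 TPM in PC9-AMG. The PC9-BrM4 libraries were the highest. INPP5F was 0.70 higher in PC9-BrM4 than in PC9 (limma, adjusted p = 0.0161), which was not called when PC9 library 1, PC9 library 2 or PC9-BrM4 library 1 was left out (up to 0.173). TFPI2, an inhibitor of serine proteases, was 0.43 higher in PC9-AMG than in PC9-BrM4 (adjusted p = 0.0261), a call lost when any library but PC9-AMG library 1 was left out (up to 0.111). SLC22A18 and OSBPL5, which lie with CDKN1C and PHLDA2 in the KCNQ1 domain, did not pass the test in any comparison, and neither did GNAS, at 878 to 1028 TPM the highest of the wider list.

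**Figure D3:**
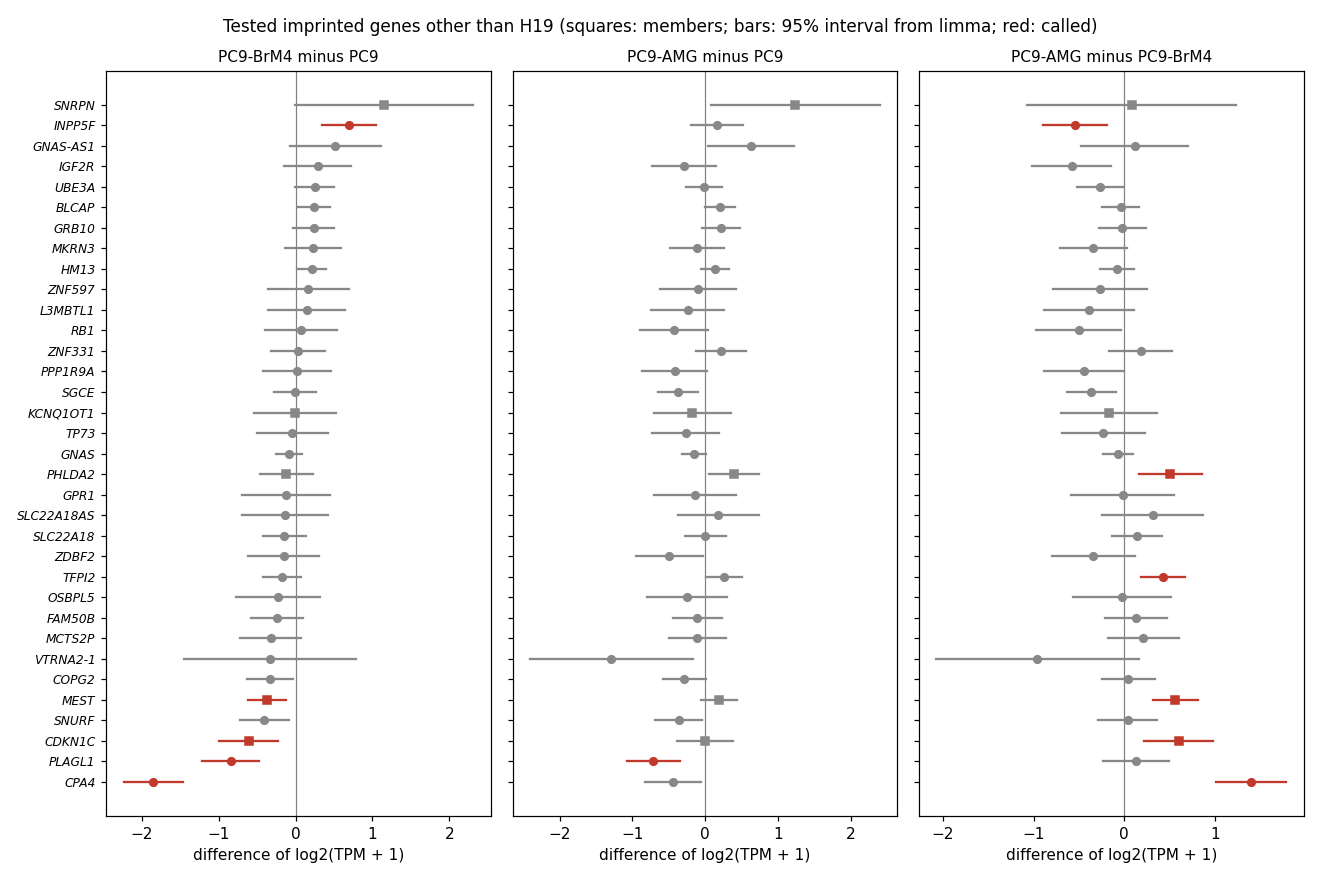
Differences of log2(TPM + 1) between lines (horizontal axes) for the 34 tested imprinted genes other than H19, with 95% intervals from limma; squares are the 5 members, circles the wider list, and red marks an adjusted p under 0.05. CPA4 stands at -1.85 and PLAGL1 at -0.84 in PC9-BrM4 against PC9, and most other intervals in that panel include 0.

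Proteins that maintain imprints were examined as a list of 26, of which 23 were tested. Between PC9-BrM4 and PC9, 3 were higher (ZFP57, KDM1B, MBD3) and 0 lower, 13.0% against 16.3% of all tested genes. Between PC9-AMG and PC9 0 were called by limma, with 5 at an unadjusted p under 0.05, and between PC9-AMG and PC9-BrM4, TRIM28 was higher and ZFP57, KDM1B and MBD3 were lower, 17.4% against 18.6%. The last count, 4, was 2 without PC9-BrM4 library 1 or PC9-AMG library 2.

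ZFP57, the zinc finger protein that holds methylation at imprinting control regions, stood at 1.73 and 0.954 TPM in PC9. It stood at 5.78 and 6.43 TPM in PC9-BrM4 and at 3.18 and 2.45 TPM in PC9-AMG. The lines were ordered PC9, PC9-AMG and PC9-BrM4 with no overlap, as for H19. ZFP57 was 1.62 ± 0.23 higher in PC9-BrM4 than in PC9 (SE, limma, adjusted p = 0.00144), a call kept in every alternative tried. It was 0.72 higher in PC9-AMG than in PC9, which was not called (adjusted p = 0.0868). PC9-AMG was 0.90 below PC9-BrM4 (adjusted p = 0.0248), a call lost without any one library of either derivative (up to 0.132) and after median centring.

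TRIM28, the partner that ZFP57 recruits, moved the other way between the derivatives. It stood at 184 TPM in both PC9 libraries, 151 and 147 TPM in PC9-BrM4, and 267 and 211 TPM in PC9-AMG. Its difference of 0.67 between PC9-AMG and PC9-BrM4 was called (limma, adjusted p = 0.00359) in every alternative. Its differences from PC9 were not called (adjusted p = 0.0959 and 0.0779), but that of PC9-BrM4 was called in 4 alternatives (lowest adjusted p = 0.0271) and that of PC9-AMG in 3 (0.0401). KDM1B, a histone demethylase needed to set maternal imprints in oocytes, was 0.66 higher in PC9-BrM4 than in PC9 (adjusted p = 0.0113). MBD3, a subunit of the NuRD complex, was 0.45 higher (adjusted p = 0.0194), a call lost after median centring and with FPKM. Neither was called in fits lacking PC9 library 1 or PC9 library 2, nor KDM1B without PC9-BrM4 library 1 or MBD3 without PC9-BrM4 library 2 (up to 0.114 and 0.135). The MBD3 difference of -0.35 between the derivatives (adjusted p = 0.0455) was lost in 13 of 20 alternatives, among them leaving out any library but PC9-AMG library 1 (up to 0.178). CTCF, which binds the H19 control region, was at 22.4 to 29.4 TPM and was not called in any comparison, and CTCFL and DNMT3L were listed at 0 throughout.

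The genes that pass on or limit the IGF2 signal were examined as a list of 18, of which 16 were tested. The list was chosen with earlier results of these data known, so its shares of called genes are a description only. Between PC9-BrM4 and PC9, 4 were higher (IGFBP2, PAPPA, IGF2BP3, IRS2) and 3 lower (IGFBP3, IGFBP6, IGFBP7), 43.8% against 16.3% of all tested genes. Between PC9-AMG and PC9, 0 were higher and 3 lower (IGFBP3, IGFBP4, IGFBP6), 18.8% against 7.49%. Between PC9-AMG and PC9-BrM4, IGFBP6 and IGFBP7 were higher and 7 were lower (IGFBP2, IGFBP3, IGFBP4, IGF1R, IRS2, IGF2BP2, IGF2BP3), 56.2% against 18.6%. Of these 9, IGFBP4, IGFBP6, IGFBP7, IRS2 and IGF2BP3 were called in every alternative tried. Leaving out 1 library left between 3 and 7 calls in the first comparison, where PC9 library 1 and PC9 library 2 each gave 3. In the second, the count of 3 became 1 without PC9 library 1, PC9 library 2 or PC9-AMG library 2, and 5 without PC9-BrM4 library 1 or PC9-BrM4 library 2. In the third, it lay between 6 and 10.

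The binding proteins, which hold IGFs outside the cell, did not move together. IGFBP3, at 2790 and 2840 TPM in PC9, was at 2240 and 2065 TPM in PC9-BrM4 and at 1687 and 1741 TPM in PC9-AMG. It was the most abundant of them, and lower in both derivatives. IGFBP6 fell from 906.5 and 919.6 TPM in PC9 to 321 and 365 TPM in PC9-BrM4, and was at 635 and 644 TPM in PC9-AMG. IGFBP7 fell from 89.2 and 94.5 TPM to 26.8 and 26.2 TPM in PC9-BrM4, while PC9-AMG stood at 63.1 and 78.2 TPM, which was not called against PC9 (adjusted p = 0.0875). IGFBP2 was instead higher in PC9-BrM4, at 109 and 138 TPM, against 80.0 and 81.5 TPM in PC9.

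In PC9-BrM4 against PC9 the differences of IGFBP6 and IGFBP7 were -1.41 ± 0.08 and -1.76 ± 0.12 (SE, limma, adjusted p = 6.33e-06 and 1.83e-05), and both calls held in every alternative. In PC9-AMG against PC9, IGFBP6 differed by -0.51 (adjusted p = 0.00948), lost after median centring and when any PC9 or PC9-AMG library was left out (up to 0.0987). In PC9-BrM4, IGFBP3 differed by -0.39 (adjusted p = 0.00483), which was not called once PC9 library 1 or PC9 library 2 was removed (up to 0.0797), and in PC9-AMG by -0.72 (adjusted p = 0.00108), a call that held in every alternative. IGFBP2 differed by 0.60 in PC9-BrM4 (adjusted p = 0.0103), lost after median centring and without either PC9 library or PC9-BrM4 library 2 (up to 0.0714). IGFBP4 was lower in PC9-AMG than in PC9 by -0.49 (adjusted p = 0.0176), lost after median centring and without either PC9 library or PC9-AMG library 2 (up to 0.2), and lower than in PC9-BrM4 by -0.74 (adjusted p = 0.000896).

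Of the genes inside the cell, IGF2BP3, an RNA-binding protein named for its binding of IGF2 mRNA, was 0.70 higher in PC9-BrM4 than in PC9 (limma, adjusted p = 0.00509), in every alternative. It stood at 72.8 and 68.1 TPM in PC9, 130 and 102 TPM in PC9-BrM4, and 70.2 and 70.8 TPM in PC9-AMG. The adaptor IRS2 was 0.52 higher (adjusted p = 0.0227), and PAPPA, a protease that releases IGFs from IGFBP4, was 0.99 higher (adjusted p = 0.0222). The IRS2 call was lost without either PC9 library or PC9-BrM4 library 1 (up to 0.151), and the PAPPA call without any one library of the 2 lines (up to 0.114). The receptors IGF1R and IGF2R, the latter imprinted in some species, were not called against PC9. IGF1R was 0.65 lower in PC9-AMG than in PC9-BrM4 (adjusted p = 0.0212), lost without PC9-BrM4 library 1 or either PC9-AMG library (up to 0.109).

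**Figure D4:**
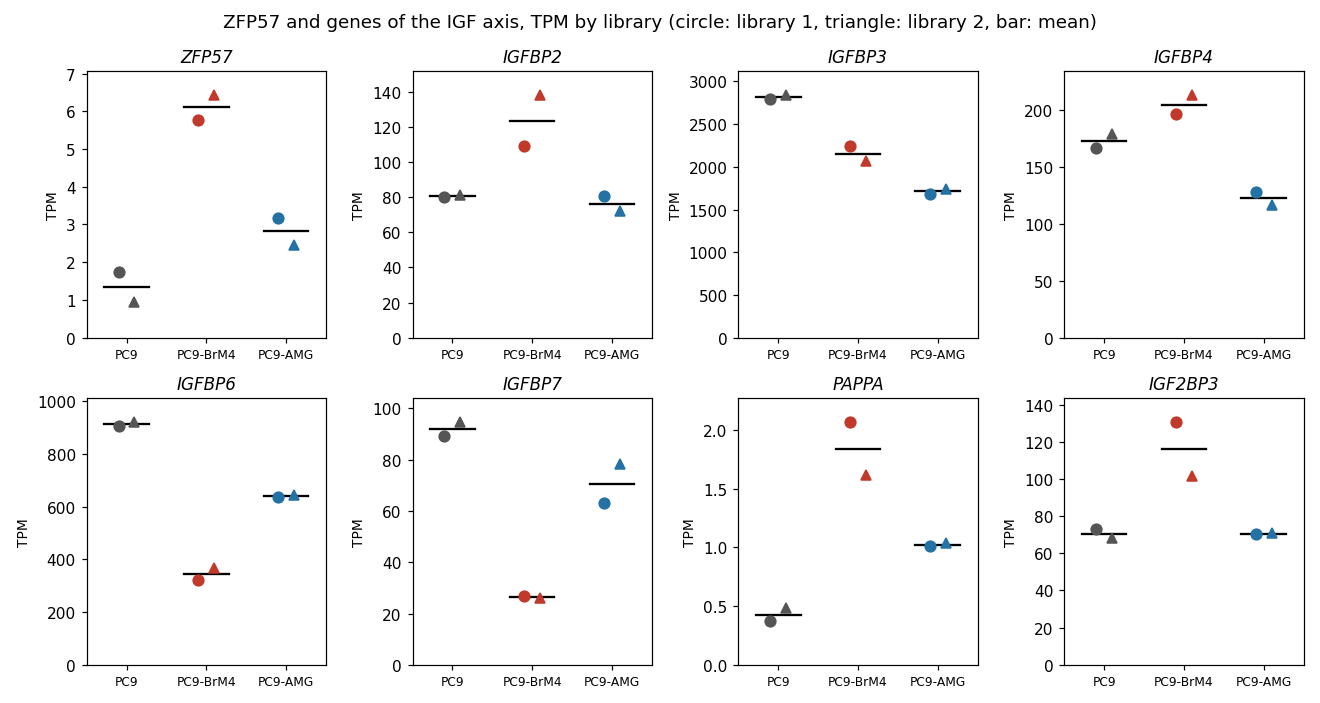
TPM (vertical axes, linear and from 0, with a separate scale for each gene) of ZFP57 and 7 genes of the IGF axis in PC9, PC9-BrM4 and PC9-AMG. Circles are library 1, triangles library 2 and bars the mean of 2 libraries. ZFP57 is at 5.78 and 6.43 TPM in PC9-BrM4, where IGFBP6 and IGFBP7 are at their lowest.

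H19 RNA can bind let-7 microRNAs, so targets of let-7 and genes of its processing were examined as a list of 15, of which 11 were tested. CDC25A, a cell cycle phosphatase, was higher in PC9-BrM4 than in PC9 (0.72, limma, adjusted p = 0.0496), a call lost when any library but PC9-BrM4 library 2 was left out (up to 0.261). MYC was 0.41 higher in PC9-AMG than in PC9 (adjusted p = 0.042), a call lost when any one library was left out (up to 0.305). These 1 of 11 calls each, 9.09%, stand against 16.3% and 7.49% of all tested genes, and 0 were called by limma between PC9-AMG and PC9-BrM4, with 2 at an unadjusted p under 0.05. HMGA2, a well known let-7 target, stood at 16.3 and 14.2 TPM in PC9 and 13.2 and 10.7 TPM in PC9-BrM4 and was not called. LIN28A and LIN28B, which block let-7 maturation, were listed at 0 in all 6 libraries.

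The neighbours of H19 on chromosome 11 differed far less than H19 itself. H19 was chosen for its strong difference, so this contrast was nearly fixed in advance and is a description only. Of the 14 other tested genes starting within 500 kb of H19, 4 were higher and 1 lower in PC9-BrM4 than in PC9. Among all tested genes 9.89% were higher and 6.45% lower. The median difference of the 14 was 0.22, against 0.09 for all tested genes. HOTS and MIR4686, which passed the filter through the PC9-BrM4 libraries alone, are part of that median, so it is not read as a shift of the neighbourhood. TNNT3 and TNNI2, troponin subunits of fast skeletal muscle, and SYT8, a synaptotagmin, were higher, and the fourth gene counted as higher was the microRNA gene MIR4686, named after its values were seen. MIR4686 was listed at 0 in both PC9 libraries, at 1.26 and 1.32 TPM in PC9-BrM4, and at 0.688 and 0 TPM in PC9-AMG. It passed the filter through the PC9-BrM4 libraries alone, so its values are a description and 3 genes were higher without it. The protease gene CTSD was lower in PC9-BrM4 by -0.43 (limma, adjusted p = 0.0109) and in PC9-AMG by -0.52 (adjusted p = 0.0121). The first call was lost when any library of PC9 or PC9-BrM4 was left out (up to 0.088), and the second without PC9 library 1, PC9 library 2 or PC9-AMG library 2 (up to 0.0953) and after median centring. MRPL23, which lies 48 kb from H19, was not called (-0.29, adjusted p = 0.128).

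TNNT3, 76 kb from H19, was listed at 0.233 and 0 TPM in PC9, 2.79 and 3.84 TPM in PC9-BrM4, and 6.18 and 3.79 TPM in PC9-AMG. Both derivatives lay above PC9. The differences from PC9 were 1.95 and 2.40 (limma, adjusted p = 0.00116 and 0.00197), and both calls held in all 19 alternatives in which the gene passed the filter. TNNT3 was thus higher in PC9-AMG, where H19 was near 1 TPM, as well as in PC9-BrM4. SYT8 was 0.92 higher in PC9-BrM4 than in PC9 (adjusted p = 0.00527), lost without PC9-BrM4 library 2 (0.0501), and TNNI2 0.60 higher (adjusted p = 0.0383), lost when any one library was left out (up to 0.345).

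SYT8 and TNNI2 were lower in PC9-AMG than in PC9-BrM4 by -1.35 and -1.19 (limma, adjusted p = 0.000662 and 0.00156), as was TH, the enzyme that makes the precursor of dopamine, by -0.97 (adjusted p = 0.00281). These 3 calls held in every alternative. DUSP8, a phosphatase of MAP kinases, was 0.71 higher in PC9-AMG than in PC9-BrM4 (adjusted p = 0.0257), lost without either PC9-BrM4 library or PC9-AMG library 1 (up to 0.126). Against PC9, beside TNNT3 and CTSD, TH was lower in PC9-AMG by -0.61 (adjusted p = 0.043) and TSSC4 higher by 0.55 (adjusted p = 0.0432); the first was lost when any PC9 or PC9-AMG library was left out (up to 0.32), and the second when any one library was left out (up to 0.298). Around CDKN1C, 0 of the 9 other tested genes within 500 kb were called between PC9-BrM4 and PC9, among them PHLDA2, SLC22A18 and NAP1L4. The share of all tested genes called was 16.3%, and 9 genes are too few to set a share beside it.

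**Figure D5:**
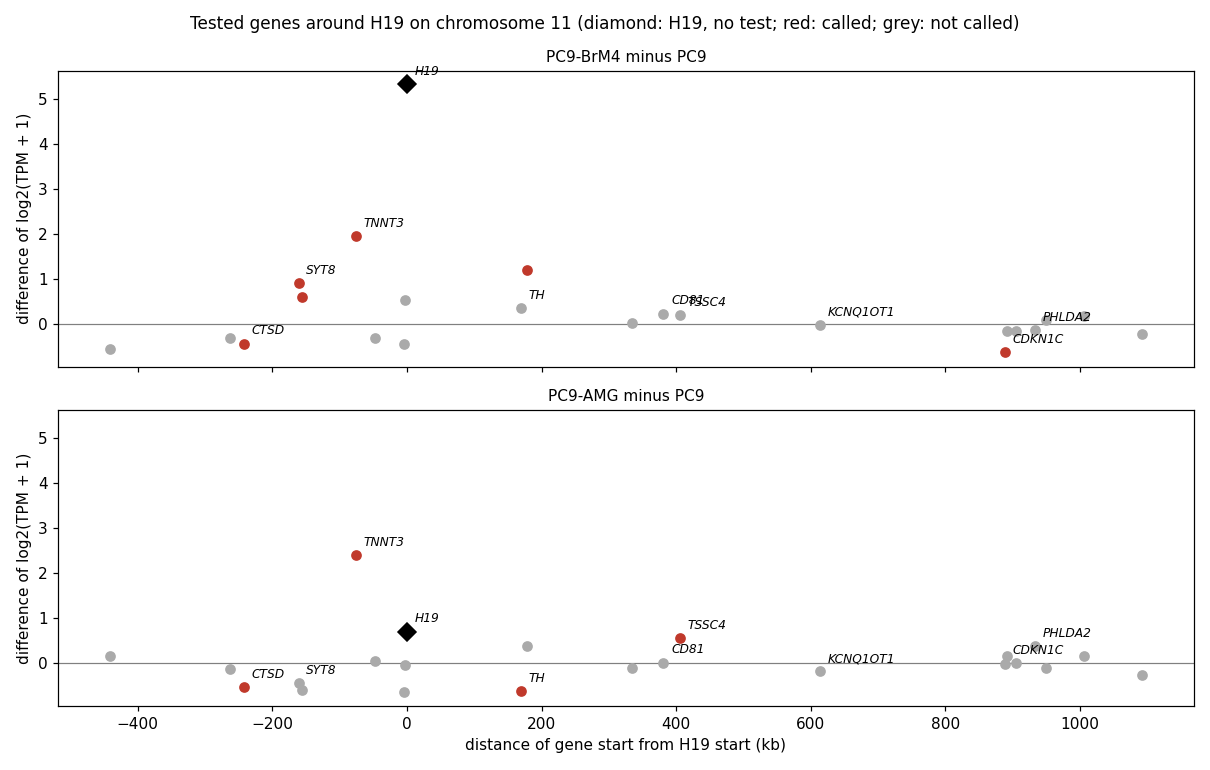
Difference of log2(TPM + 1) from PC9 (vertical axes) of the tested genes from 500 kb before to 1100 kb after the start of H19 on chromosome 11, against distance from H19 in kb (horizontal axis), for PC9-BrM4 (top) and PC9-AMG (bottom); red marks called genes (MIR4686 among them in PC9-BrM4), the diamond H19, which was not tested. H19, chosen for its strong difference, stands at 5.32 in PC9-BrM4, and the 22 other genes lie between -0.61 and 1.95.

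Genes whose profile over the 6 libraries was most like that of a member were found by Pearson correlation of log2(TPM + 1) among 10787 genes. Genes with names of small RNAs, clones, open reading frames, LOC, numbered LINC or antisense genes were left out before the ranking. For H19 they were SUSD2, KRT81, CYP1A1, KRT5 and MGP, with r between 0.997 and 0.999. With 6 libraries in 3 lines, such values say only that a gene is higher in PC9-BrM4 than in the other lines. CYP1A1, an enzyme induced by aryl hydrocarbons, was at 0.152 and 0 TPM in PC9, 10.9 and 10.4 TPM in PC9-BrM4, and 0.836 and 0.219 TPM in PC9-AMG, and so ran from near 0 in PC9 as H19 did. For CDKN1C the most similar genes were UQCRB, RPL21, SYF2, RPL23 and ZCRB1 (r between 0.985 and 0.995). For MEST they were ZNF766, CDK2, TMEM106C, SNHG1 and HSPB8 (r between 0.991 and 0.994).

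Depth is unknown, since the files give no read counts; a gene at 1 TPM had a mean coverage of 0.606 to 0.822 reads per base, and each library listed 13848 to 14171 genes at 1 TPM or more. Of 12 epithelial markers, 10 were tested; their summed level was 15923 and 16156 TPM in PC9, 11959 and 12319 TPM in PC9-BrM4, and 14268 and 13691 TPM in PC9-AMG. In PC9-BrM4 against PC9, 5 of the 10 were lower and 0 higher (median -0.44), against 6.45% lower and 9.89% higher among all tested genes. In PC9-AMG against PC9, 4 were lower and 0 higher (median -0.33), against 3.82% lower and 3.67% higher. EPCAM stood at 634 to 856 TPM, while of the lung lineage markers NKX2-1 stayed under 0.3 TPM and SFTPB was listed at 0. Of 11 astrocyte markers, GFAP, S100B and SPARCL1 were listed at 0 in all 6 libraries. The summed level of the list was 139 and 151 TPM in PC9, 101 and 94.7 TPM in PC9-BrM4, and 190 and 179 TPM in PC9-AMG, most of it from ALDOC in every line. Of its 5 tested markers, ALDOC and APOE were lower in PC9-BrM4 than in PC9. FGFR3 and SLC1A3 were counted as higher, SLC1A3 having passed the filter through the PC9-BrM4 libraries alone. Of the same 5, 1 was higher and 0 lower in PC9-AMG than in PC9. In PC9-AMG against PC9-BrM4, 3 were higher and 2 lower. All tested genes were called at 16.3%, 7.49% and 18.6% in these comparisons, and 5 markers are too few to set a share beside them. The summed level of 8 neuron markers was 128 to 158 TPM per library, and that of 6 oligodendrocyte markers 20.2 to 26.8 TPM. Only 3 and 1 of these were tested, and 0 were called. SYT1 alone had an unadjusted p under 0.05 (limma, PC9-BrM4 against PC9). Of 9 microglia markers, 7 were listed at 0 in all libraries. The summed level of 9 fibroblast and endothelial markers was 11.2 and 13.1 TPM in PC9, 19.2 and 17.6 TPM in PC9-BrM4, and 17.1 and 10.7 TPM in PC9-AMG, most of it from COL1A1. The part of these shifts in the values of H19 and the other imprinted genes was not tested.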

How the data were processed

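The analysis used deposited gene tables of 6 mRNA libraries (2 per line). Per the labels' protocols, TRIzol RNA was made into TruSeq Stranded mRNA libraries; per the submitters' processing notes, HISAT2 2.1.0, StringTie 1.3.4d and hg38 were used. The annotation used for counting is not given in the sources used here. The main values are the authors' TPM per gene and library. Deposited FPKM served as an alternative, and deposited coverage signal described depth, since the files hold no read counts. TPM of genes listed at several places was summed, giving 26485 genes; of the 26475 genes in the table over all libraries, 98.9% agreed within 0.001 TPM.

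Testing was limited to 14627 genes that reached 1 TPM in 2 or more libraries. One mean per line was fitted to log2(TPM + 1) of all 6 libraries with limma 3.58.1 in R 4.3.3 (trend, two-sided, 3 residual and 6.81 prior degrees of freedom). Calls used p adjusted by Benjamini-Hochberg over all tested genes, with 0.05 as the threshold. The procedure was tested on simulated data. The members and gene lists were chosen with earlier results of these data known. Genes named outside the members are those of a list called in at least 1 comparison with 1 TPM or more in the higher line (at most 10 a list), up to 3 called genes within 500 kb of each member, and the 5 genes most similar to H19 and to at most 3 other members with 5 TPM or more in a line; genes named after their values were seen are marked.

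Calls over all tested genes, members and named genes were recomputed, with the counts of the wider imprinted, imprint maintenance, IGF and let-7 lists. The settings were other pseudocounts (0.5, 0.1), the filter raised to 5 TPM or removed, FPKM, and the table over all libraries. Values were also centred on the median, quantile normalized or rescaled after removing the 100 highest genes. Counts of neighbours, results for cell type markers and the genes found by similarity come from the main values alone. Robust and untrended moderation, a replicate block, fits to the 4 libraries of a comparison and leaving out each library were also tried. Summing SNRPN and SNURF, and all alternatives for named genes outside the members, were added after the data were seen. Gene structure came from GENCODE 29 and printed sequences from RefSeq (GRCh38.p14).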

Additional observations from a re-analysis of the deposited data

Results flagged for a closer look

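In 3 of the 5 tested members other than H19 the 2 derivatives differed from each other by a direct test of PC9-AMG against PC9-BrM4. Of all tested genes, 18.6% were called in this comparison, and 5 genes are too few to set a share beside it. CDKN1C was 0.60 higher in PC9-AMG than in PC9-BrM4 (log2(TPM + 1), limma, adjusted p = 0.0359). PHLDA2 was 0.51 higher (adjusted p = 0.0455) and MEST 0.57 higher (adjusted p = 0.00732). Both PC9-AMG libraries lay above both PC9-BrM4 libraries in each of the 3 genes, which adds no support, since the 3 were picked by this same test. The MEST difference was called in all 20 alternatives, the CDKN1C difference was not called in 7 and the PHLDA2 difference in 8.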

How the results depend on the processing

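No alternative reversed a called difference of a member. Among all tested genes, the number called between PC9-AMG and PC9 was 1096, and 250 with no filter, 325 without the trend, and 131 to 1152 with 1 library left out. Between PC9-AMG and PC9-BrM4 it was 2720, and 1799 with no filter and 1024 to 2886 with 1 library left out. Between PC9-BrM4 and PC9 it was 2389, and 892 to 2383 with 1 library left out. The members called between PC9-BrM4 and PC9 went from 2 to 0 with no filter and to 0 without the trend, and to 0 to 2 with 1 library left out. Between PC9-AMG and PC9-BrM4 they went from 3 to 1 with no filter, to 1 without the trend, to 1 with only the 4 libraries compared, and to 1 to 3 with 1 library left out. Between PC9-AMG and PC9 they were 0, and 0 to 1 with 1 library left out. The cause was not tested, apart from the fewer libraries of the last settings.

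The replicate number as a block gave 1 member called between PC9-AMG and PC9, SNRPN (adjusted p = 0.0409), which was also called between PC9-BrM4 and PC9 (0.0343), where the call of MEST was lost (0.0621). With the block 2483, 1298 and 2905 genes were called in the 3 comparisons (PC9-BrM4 from PC9, PC9-AMG from PC9, and PC9-AMG from PC9-BrM4). Libraries with the same number did not deviate together over the tested genes (correlations of deviations 0.029, -0.039 and 0.0027). Whether they were prepared in pairs cannot be told from this. Outside the members, 19 (MIR4686 among them), 9 and 20 differences of named genes were called in these comparisons. Of these, 6, 2 and 11 were called in every alternative that gave a value. These counts leave out the cell type markers and the genes found by similarity, which were not recomputed. The difference of H19 kept its direction in all 20 alternatives, at 4.17 to 8.02 for PC9-BrM4 against PC9. IGF2 and PEG10 have values only with no filter. A lone library left in a line is assumed to vary like the others. Without read counts, values under 1 TPM have no counting error attached.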
